A study of Homo sapiens and Mus musculus with 13 samples.

Results

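The genes described here are 30 markers of blood and lymph vessels, measured by RNA-Seq in 6 mouse mammary tumors. They were chosen by name from knowledge of vessel biology, at a time when earlier results of these data were known. All 30 were found among the 55228 gene symbols of the mouse table, and 29 of them were among the 17328 genes with a mean of at least 0.5 FPKM over the tumors, which were the genes tested. The remaining gene, Flt4, had a mean of 0.442 FPKM. FPKM divides the fragments of a gene by its length and by the size of the library, so levels of different genes can be set side by side.

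The tumors came from female MMTV-PyVT mice, in which the mammary tumor virus promoter drives the polyoma virus middle T antigen in mammary epithelium. In the Trim11+/+ group the mice carried both intact copies of Trim11, and in the Trim11+/- group one copy carried a CRISPR/Cas9 deletion of several exons in every cell of the body. Each group had 3 tumors, with 1 library per tumor, from mice sacrificed in the third month. Trim11+/- mice of the C57BL/6N strain had been backcrossed and mated with FVB/N-Tg(MMTV-PyVT) mice, so all tumors carried the oncogene and a mixed background. A further 7 libraries of the series come from MDA-MB-231, a line of human breast cancer cells. They are a Control line and lines with knockdown of TRIM11, KDM5C or both. These libraries serve here only to show which genes of the set cultured cancer cells express.

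Growing tumors draw new capillaries from nearby vessels. Vascular endothelial growth factor from hypoxic tissue acts on the receptor Kdr, a tip cell leads each sprout, and angiopoietins acting on Tek then loosen or settle the vessel wall. Endothelial cells hold together through the cadherin Cdh5 and the claudin Cldn5, and their identity is kept by transcription factors of the ETS family, such as Erg, and of the SOX family, such as Sox17 and Sox18. Lymph vessels take the transcription factor Prox1, the receptor Flt4 and the hyaluronan receptor Lyve1. In the mammary gland the capillaries run through the fat pad around the epithelium, so a tumor sample can hold vessels of the tumor and of the remaining fat. In such bulk samples, fewer endothelial cells and less RNA per endothelial cell cannot be told apart.

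Library totals recovered from the FPKM values were between 8793199 and 11117125 reads. Trim11, the targeted gene (ENSMUSG00000020455.16; chromosome 11 of mm10, 58978093 to 58991458), had 35.8, 36.3 and 39.2 FPKM in Trim11+/+ tumors 1 to 3 and 24.0, 22.8 and 22.9 FPKM in Trim11+/- tumors 1 to 3. The groups did not overlap and the ratio of means was 0.626 (exact permutation test, two-sided, p = 0.1, below which 6 tumors in groups of 3 cannot go). The log2 fold change was -0.65 (SE 0.08), with an adjusted p of 0.199 by limma, fitted to all genes tested. Genotypes follow the titles and the genotype label, since the strain text of every tumor, wild type included, names Trim11+/- and a mouse line number that runs on from tumor to tumor. The labels do not say whether littermates were used. The limma p-values set the difference between genotypes against the spread within genotypes among these 6 tumors. For all genes below, values are given in the order of tumors 1, 2 and 3 of a genotype, and a log2 fold change is that of FPKM + 1 in Trim11+/- minus Trim11+/+.

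RNA of every member was found in every tumor, at low to moderate levels. Plvap, a protein of the diaphragms that span endothelial pores, had the highest mean over the 6 tumors, 14.5 FPKM. It was followed by Apln with 9.75, Eng with 6.85, Sox18 with 6.59, Cdh5 with 5.55, Pecam1 with 5.12 and Cd34 with 5.01 FPKM. Neighbours in this order from Eng to Cd34 differed by less than the SD of either gene over the tumors. These 7 genes had means of at least 5 FPKM, and 16 of the 30 were under 2 FPKM. Read numbers behind a single value ranged from 9 for Esm1 to 562 for Apln, and 3 genes, Cldn5, Icam2 and Esm1, had under 20 reads in at least 1 tumor.

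**Figure D1:**
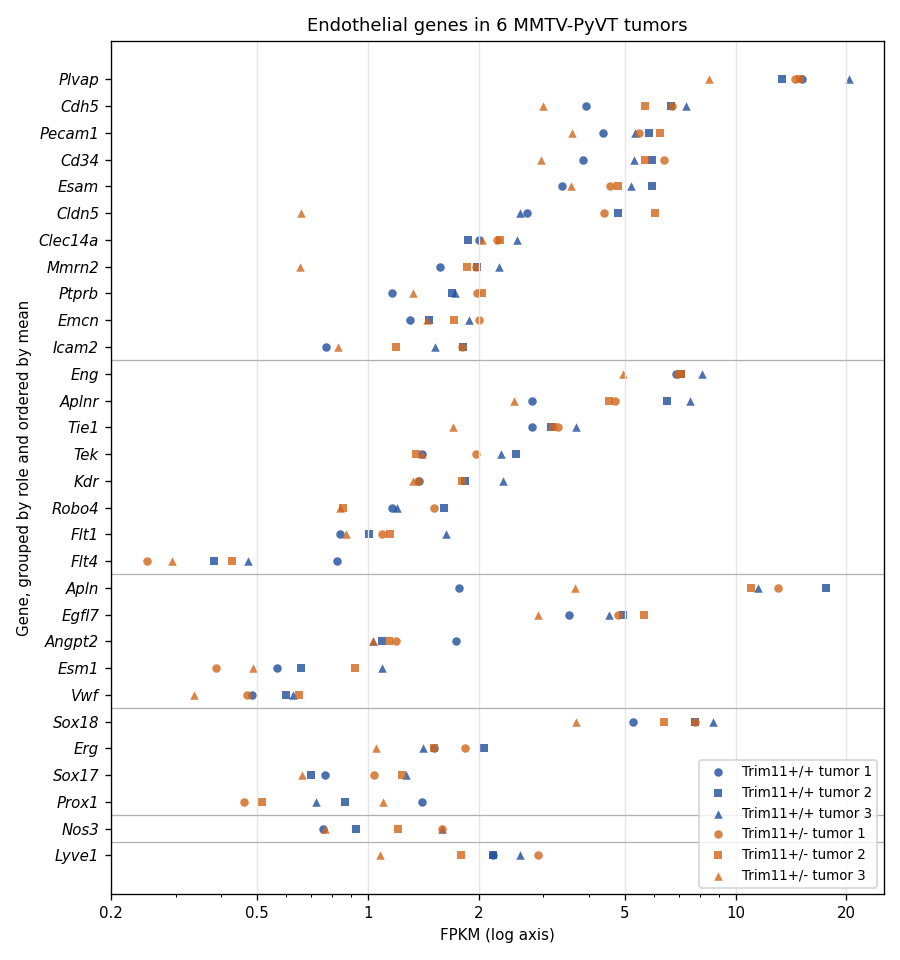
Level of each of the 30 genes in FPKM on a log axis, with 1 point per tumor, in blue for Trim11+/+ and orange for Trim11+/-, and marker shape for tumor 1, 2 or 3. Lines part the groups by role, from the top surface proteins, receptors, ligands and secreted proteins, transcription factors, enzyme and Lyve1. Points of both colours mix in every row, and the orange triangle, Trim11+/- tumor 3, lies at the left end of most rows, as at 0.657 FPKM for Cldn5 and 0.656 FPKM for Mmrn2.

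All 30 genes had a larger SD between tumors than counting of reads alone gives, and for 23 of them it was at least 2 times larger. Apln stood furthest out, with a relative SD of 61.0% over the tumors where counting alone gives 5.66%. Aplnr followed, at 41.7% against 7.47%. The steadiest gene was Clec14a, a lectin of the vessel surface, at 11.3% against 9.92%. This spread holds differences between animals and between library preparations, which 1 library per tumor cannot tell apart.

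**Figure D2:**
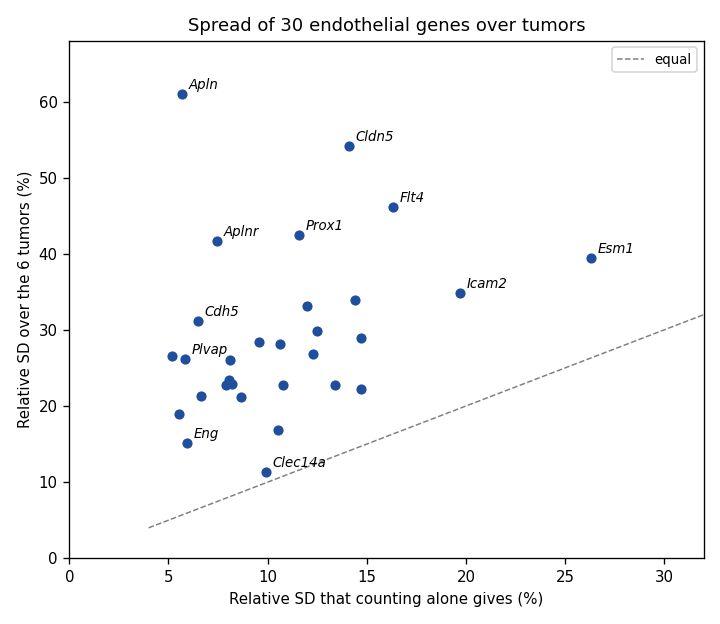
Relative SD of FPKM over the 6 tumors against the relative SD that counting of reads alone gives, both in percent, with 1 point per gene and a dashed line where both are equal. All 30 points lie above the line, with Apln at 61.0% and Clec14a, nearest to the line, at 11.3%.

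To learn whether the vessel genes differ between Trim11+/- and Trim11+/+ tumors, each was compared by genotype. None of the 29 genes tested passed an adjusted p of 0.05 in limma, where 0.00577% of all genes tested did. None had an unadjusted limma p under 0.05, where 6.94% of all genes did, and none met the rule of a 1.5-fold ratio with an unadjusted p under 0.05. That rule called 1.87% of all genes as lower and 1.74% as higher in Trim11+/- tumors. No member had genotypes that did not overlap, against 13.4% of all genes. The mean difference was larger than the pooled SD within genotypes for 1 member, Eng, or 3.45%, against 33.7% of all genes. Adjusted p-values of the members in limma lay between 0.803 and 0.998, and limma voom on the recovered reads also called none.

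The signs of these differences were not even. Of 29 genes, 22 or 75.9% had a log2 fold change below 0, against 50.9% of all genes, and the median was -0.11 against -0.005 for all genes. The median was -0.22 with a pseudocount of 0.1 and -0.24 with limma voom on the recovered reads. This lean moved with single tumors. Without Trim11+/- tumor 3 it was 15 of the genes and a median of -0.01, and without Trim11+/+ tumor 1 it was 26 and -0.23. With both left out, a setting chosen after their values were seen, it was 19 and -0.10. Counts of signs by role and by list below have the same 50.9% of all genes beside them. The summed FPKM of all 30 genes was 78.3, 115 and 118 in Trim11+/+ tumors (mean 104 ± 22.2, SD, n = 3) and 109, 105 and 59.2 in Trim11+/- tumors (mean 90.9 ± 27.5, SD, n = 3), with overlapping groups.

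**Figure D3:**
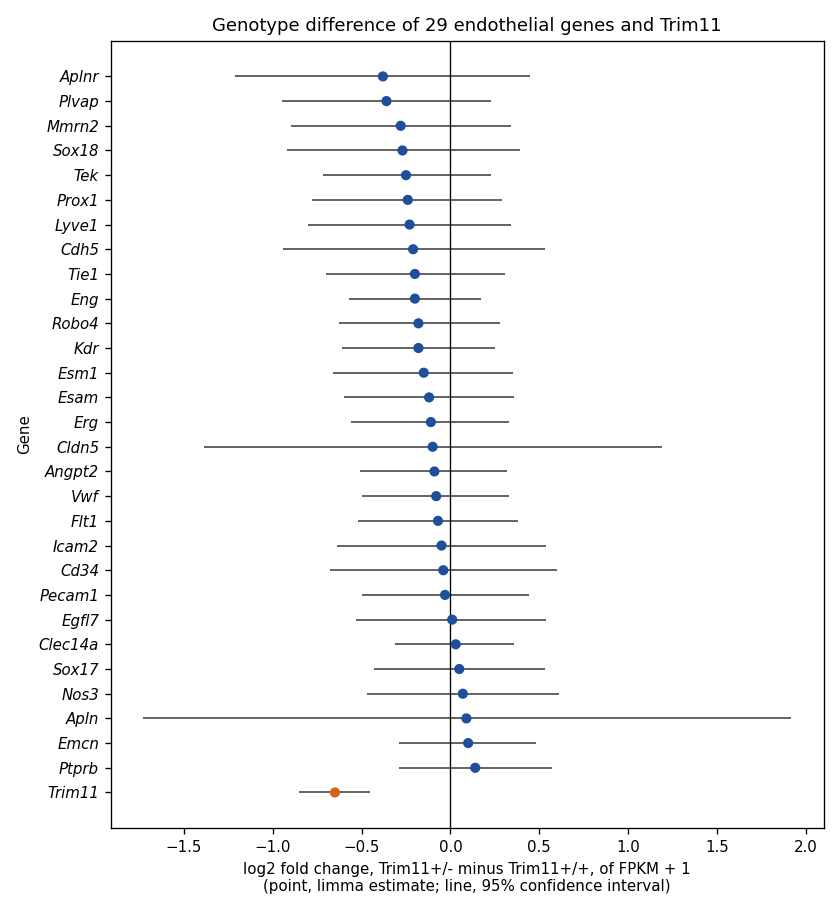
Log2 fold change of FPKM + 1, Trim11+/- minus Trim11+/+, for the 29 genes tested and for Trim11 in orange, with points for limma's estimate and lines for its 95% confidence interval, 3 tumors per genotype. All intervals of vessel genes cross 0, the widest for Apln from -1.73 to 1.92, while that of Trim11 runs from -0.85 to -0.45.

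A single pair of tumors set most of the pattern among samples. Trim11+/- tumor 3 held the lowest value of the 6 for 17 of 29 genes (58.6%, against 20.9% of all genes). Trim11+/+ tumor 1 held it for 7, namely Esam, Icam2, Emcn, Ptprb, Flt1, Apln and Nos3 (24.1%, against 17.5% of all genes). For 16 genes, or 55.2%, these were the 2 lowest tumors, against 11.5% of all genes. Against its own mean over the tumors on the log2 scale, 28 of 29 genes were below it in Trim11+/- tumor 3, with a median of -0.31, and 24 in Trim11+/+ tumor 1, with a median of -0.16. Over all genes the medians were 0.01 and 0.02, and 49.3% and 46.5% of all genes were below their mean in these tumors. The highest value fell in Trim11+/+ tumor 3 for 13 of the 29 genes, against 11.1% of all genes. It fell in Trim11+/- tumor 3 for none, against 22.9% of all genes. These counts were made after the values had been seen and are a description, since the genes of a tumor share its library and its cells. The low pair held 1 tumor of each genotype.

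**Figure D4:**
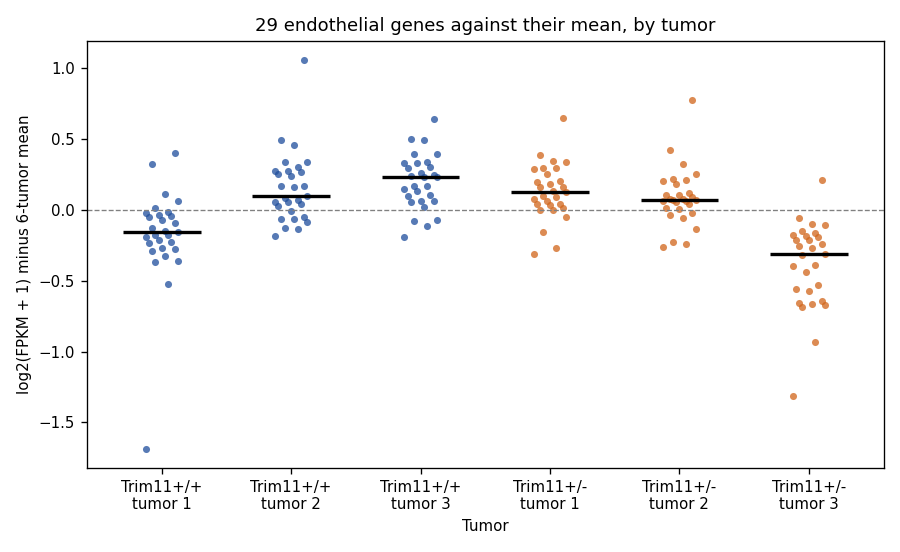
Log2(FPKM + 1) of each of the 29 genes tested minus the mean of that gene over the 6 tumors, by tumor, with 1 point per gene, a black bar for the median and a dashed line at 0. Trim11+/- tumor 3, with a median of -0.31, and Trim11+/+ tumor 1, with a median of -0.16, lie below the other tumors, whose medians run from 0.07 to 0.23.

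Among the 11 junction, adhesion and surface proteins, 8 had a log2 fold change below 0 and 3 above, from -0.36 to 0.14. Pecam1, or CD31, joins endothelial cells to each other and had 4.35, 5.80 and 5.31 FPKM in Trim11+/+ tumors and 5.47, 6.21 and 3.60 FPKM in Trim11+/- tumors. Both its highest and its lowest value were in Trim11+/- tumors, and the log2 fold change was -0.03 (SE 0.20, limma adjusted p = 0.983). Cdh5, or VE-cadherin, builds the adherens junction of endothelium and had 3.92, 6.67 and 7.33 FPKM against 6.72, 5.66 and 2.99 FPKM. Tumor 1 of Trim11+/+ and tumor 3 of Trim11+/- were again the low ones and the groups overlapped (log2 fold change -0.21, SE 0.31). Plvap had 15.2, 13.4 and 20.3 FPKM against 14.5, 15.0 and 8.48 FPKM, with the groups overlapping at 13.4 to 15.0. Its log2 fold change was -0.36 (SE 0.24, 95% confidence interval -0.95 to 0.23, limma adjusted p = 0.803).

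Cldn5, which seals the tight junction of endothelium, ranged most widely in this group. It had 2.71, 4.79 and 2.60 FPKM in Trim11+/+ tumors and 4.38, 6.02 and 0.657 FPKM in Trim11+/- tumors. The highest and the lowest tumor were both Trim11+/-. The lowest rested on 10 reads (exact Poisson 95% interval 0.315 to 1.21 FPKM, counting error only) and the highest on 75 reads (4.74 to 7.55 FPKM), so the 9.17-fold gap between these libraries is beyond counting error. Mmrn2, a matrix protein bound to the vessel surface, had 1.57, 1.98 and 2.28 FPKM against 1.97, 1.86 and 0.656 FPKM. All tumors but Trim11+/- tumor 3 lay within 1.57 to 2.28 FPKM.

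Cd34, a sialomucin of vessel and stem cells, had 3.84, 5.92 and 5.30 FPKM against 6.40, 5.66 and 2.95 FPKM. Its means were 5.02 and 5.01 FPKM, with both genotypes holding a low tumor. Ptprb, or VE-PTP, a phosphatase that restrains Tek, had the highest log2 fold change of the 29 genes, 0.14 (SE 0.18, limma adjusted p = 0.894), from 1.16, 1.69 and 1.73 against 1.98, 2.05 and 1.33 FPKM. Emcn, a sialomucin of capillaries and veins, followed at 0.10 (SE 0.16), with 1.30 to 1.88 against 1.45 to 2.01 FPKM. Esam, a junction protein also found on platelets, ranged from 3.38 to 5.94 FPKM over the 6 tumors. Icam2, an adhesion receptor for leukocytes, ranged from 0.769 to 1.81 FPKM, and Clec14a from 1.87 to 2.55 FPKM.

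All 7 receptors tested had a log2 fold change below 0, from -0.38 to -0.07, and Flt4, listed with the lymph vessel genes, was not tested. The receptors of vascular endothelial growth factor were low. Kdr, its main signalling receptor, had 1.38, 1.84 and 2.33 FPKM against 1.37, 1.80 and 1.33 FPKM. Trim11+/+ tumor 3 was its highest and the other 5 tumors overlapped (two-sided exact permutation test, p = 0.2, limma adjusted p = 0.861). Flt1, a decoy that binds the same ligand, had 0.840, 1.01 and 1.63 FPKM against 1.09, 1.15 and 0.875 FPKM, with overlapping groups.

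Tek, or Tie2, the receptor of the angiopoietins, had 1.40, 2.53 and 2.30 FPKM against 1.97, 1.35 and 1.40 FPKM (log2 fold change -0.25, SE 0.20, limma adjusted p = 0.830). Here the 2 low Trim11+/- tumors were tumors 2 and 3, level with Trim11+/+ tumor 1. Tie1, its orphan relative, had 2.79, 3.14 and 3.67 FPKM against 3.29, 3.19 and 1.70 FPKM. Only tumor 3 of Trim11+/- stood apart. Robo4, a guidance receptor of endothelium, ranged from 0.842 to 1.61 FPKM.

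Eng, or endoglin, a co-receptor for ligands of the transforming growth factor beta family, was the least variable receptor. It had 6.87, 7.10 and 8.12 FPKM against 6.96, 7.11 and 4.94 FPKM. The first 2 tumors of either genotype were alike, and the mean difference came from tumor 3 of each (log2 fold change -0.20, SE 0.15, limma adjusted p = 0.824). Aplnr, the receptor of apelin, had the estimate furthest from 0 with a pseudocount of 1. With a pseudocount of 0.1 and with voom it was -0.45, and Prox1 (-0.51 and -0.58) and Mmrn2 (-0.48 and -0.52) lay further out. Aplnr had 2.80, 6.49 and 7.52 FPKM against 4.69, 4.52 and 2.49 FPKM, with a log2 fold change of -0.38 (SE 0.35, 95% confidence interval -1.21 to 0.45, limma adjusted p = 0.848). Trim11+/+ tumors 2 and 3 lay above all others, and Trim11+/+ tumor 1 lay below 2 of the Trim11+/- tumors. Without Trim11+/+ tumor 1 it was the 1 member that met the fold and p rule, at a ratio of 0.557 and a log2 fold change of -0.74, with an unadjusted p of 0.0278 and an adjusted p of 0.692 in limma.

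Apln, the ligand of Aplnr, is secreted by sprouting endothelium and also by fat cells. It had the widest range of all members, and its coding sequence is shown because the level of this short hormone precursor moved most among tumors. The open reading frame of the mouse transcript in the GENCODE annotation has 234 bases and 77 codons before the stop. It lies on the minus strand of the X chromosome of mm10 between 48028299 and 48034505, spread over exons. Capitals mark the last 13 codons before the stop, which encode the short active peptide apelin-13.
Apln: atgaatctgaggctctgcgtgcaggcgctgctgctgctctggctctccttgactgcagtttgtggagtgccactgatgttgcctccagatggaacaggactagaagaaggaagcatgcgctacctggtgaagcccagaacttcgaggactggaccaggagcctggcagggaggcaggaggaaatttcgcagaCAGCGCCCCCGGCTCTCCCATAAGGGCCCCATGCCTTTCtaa

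Apln had 1.77, 17.6 and 11.5 FPKM in Trim11+/+ tumors and 13, 11 and 3.66 FPKM in Trim11+/- tumors. The lowest value rested on 61 reads (exact Poisson 95% interval 1.36 to 2.28 FPKM) and the highest on 562 reads (16.1 to 19.1 FPKM). Both extremes were Trim11+/+ tumors, 9.90-fold apart, and the interval of the genotype difference was correspondingly wide (log2 fold change 0.09, SE 0.76, 95% confidence interval -1.73 to 1.92). The same 2 tumors were lowest for Apln and for its receptor.

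The other secreted proteins were lower in level and steadier than Apln. Egfl7, a matrix protein that guides sprouts, had 3.53, 4.94 and 4.54 FPKM against 4.80, 5.65 and 2.91 FPKM, with a log2 fold change of 0.01 (SE 0.22). Angpt2, the angiopoietin that loosens vessels, had 1.74, 1.09 and 1.03 FPKM against 1.19, 1.14 and 1.03 FPKM. It was the reverse of most members in that Trim11+/+ tumor 1 was its highest, and the other 5 tumors lay within 1.03 to 1.19 FPKM. Esm1, or endocan, a product of tip cells, ranged from 0.386 to 1.09 FPKM on 9 to 23 reads, and Vwf, the clotting factor stored in endothelium, from 0.336 to 0.651 FPKM.

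Of the transcription factors, Sox18 had the highest level, with 5.25, 7.77 and 8.67 FPKM against 7.77, 6.39 and 3.68 FPKM. Trim11+/- tumor 3 and Trim11+/+ tumor 1 were the low ones (log2 fold change -0.27, SE 0.27, limma adjusted p = 0.863). Erg had 1.51, 2.07 and 1.41 FPKM against 1.84, 1.51 and 1.05 FPKM, and Sox17, a factor of arteries, 0.767, 0.701 and 1.27 FPKM against 1.04, 1.24 and 0.663 FPKM. For both, the groups overlapped and Trim11+/- tumor 3 was the lowest. Nos3, the endothelial enzyme that makes nitric oxide, had 0.753, 0.928 and 1.59 FPKM against 1.59, 1.21 and 0.766 FPKM, with Trim11+/+ tumor 1 and Trim11+/- tumor 3 at the bottom by a small margin (log2 fold change 0.07, SE 0.23).

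The lymph vessel genes did not move as one. Prox1, the factor that sets lymphatic identity, had 1.40, 0.868 and 0.724 FPKM against 0.461, 0.515 and 1.10 FPKM. Trim11+/+ tumor 1 and Trim11+/- tumor 3, lowest for most vessel genes, were its 2 highest (log2 fold change -0.24, SE 0.22, limma adjusted p = 0.848). Lyve1, which some macrophages also carry, had 2.19, 2.19 and 2.59 FPKM against 2.90, 1.79 and 1.08 FPKM and was again lowest in Trim11+/- tumor 3. Flt4, the receptor for the lymphatic growth factors, had 0.823, 0.382 and 0.472 FPKM against 0.251, 0.428 and 0.294 FPKM. In the fit without a filter on low values its log2 fold change was -0.23 (SE 0.14, limma adjusted p = 0.836), and the groups overlapped.

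Mean log2(FPKM + 1) values over subsets of the members were compared by tumor, with no test. Over 8 core genes of the vessel wall (Pecam1, Cdh5, Tie1, Emcn, Esam, Clec14a, Mmrn2 and Robo4) it was 1.75, 2.04 and 2.1 in Trim11+/+ tumors and 2.05, 1.97 and 1.54 in Trim11+/- tumors. Over 5 genes of sprouting vessels (Kdr, Esm1, Apln, Angpt2 and Aplnr) it was 1.35, 2.08 and 2.11 against 1.83, 1.91 and 1.37. Taken as sprout minus core, it was -0.40, 0.04 and 0.02 against -0.22, -0.06 and -0.17. This difference turned on Apln, since without it the other 4 genes minus core gave -0.44, -0.49 and -0.37 against -0.71, -0.47 and -0.39, lowest in Trim11+/- tumor 1. The 3 lymph vessel genes had means of 1.27, 1.01 and 1.06 against 0.94, 0.87 and 0.83, highest in Trim11+/+ tumor 1 and lowest in Trim11+/- tumor 3. Minus core they gave -0.49, -1.03 and -1.03 against -1.11, -1.11 and -0.71, a value that a low core raises by construction. Except for the lymph vessel mean, the genotypes overlapped for each of these values. Sprout minus core, for one, was -0.12 ± 0.25 and -0.15 ± 0.08 (SD, n = 3 each). The lymph vessel mean was at most 0.94 in Trim11+/- tumors and at least 1.01 in Trim11+/+ tumors. It includes Flt4, which was under the filter, and each of its 3 genes alone had overlapping groups.

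Other genes known in endothelium, taken as a sum, gave a similar picture by tumor. Of 29 such genes, 26 were tested, 17 had a log2 fold change below 0 and their median was -0.02. Their summed FPKM was 71.6, 84.0 and 83.4 against 81.6, 84.6 and 56.9, lowest in the same 2 tumors. The 2 with the highest level were Aqp1, a water channel also made by other cells, at 21.7, 21.8 and 22.8 against 23.0, 24.5 and 13.4 FPKM, and Podxl, a sialomucin, at 8.52, 14.6 and 13.5 against 12.4, 10.6 and 7.19 FPKM. In both, Trim11+/- tumor 3 was lowest. Arhgef15, an exchange factor of endothelium, met the fold and p rule, with 1.0, 1.29 and 1.28 FPKM against 0.749, 0.596 and 0.459 FPKM. Its groups did not overlap, as for 13.4% of all genes tested (log2 fold change -0.45, SE 0.16, unadjusted p = 0.0284, adjusted p = 0.693, limma). Sele, Bmx and Mmrn1 were under the filter on low values and were not tested. In Mmrn1 the groups overlapped, and in Sele and Bmx all Trim11+/- tumors lay below all Trim11+/+ tumors, at low values. Sele had 0.346 to 0.479 against 0.124 to 0.234 FPKM, and Bmx 0.127 to 0.237 against 0 to 0.0291 FPKM.

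Signals that act on vessels were next. Of 10 tested genes for ligands and co-receptors of the vascular endothelial growth factor and angiopoietin families, 6 had a log2 fold change below 0 and none had an unadjusted p under 0.05 in limma. Their summed FPKM was 44.3, 54.5 and 62.7 against 54.4, 61.7 and 43.8, again lowest in Trim11+/+ tumor 1 and Trim11+/- tumor 3. Vegfa, the ligand of Kdr, had 9.97, 12.0 and 16.4 FPKM against 13.7, 22.6 and 11.4 FPKM, and Vegfb 16.2, 15.2 and 17.0 against 15.0, 13.6 and 14.1 FPKM. The groups overlapped for Vegfa (log2 fold change 0.26, SE 0.28). For Vegfb all Trim11+/- tumors were under all Trim11+/+ tumors by a small margin. Vegfd also had groups without overlap, at 0.912, 1.63 and 1.24 against 0.747, 0.614 and 0.812 FPKM (limma adjusted p = 0.722). Genotypes did not overlap for 13.4% of all genes tested. Among 15 Notch and bone morphogenetic protein signals of vessels, 8 were below 0, and their sum of 145, 162 and 175 against 215, 203 and 123 FPKM was lowest in the same pair, but without Hey1, the gene of highest level, it was 98.5, 94.6 and 110 against 104, 124 and 76.7 FPKM and did not single out the pair. Jag2, a Notch ligand also made by epithelium, met the fold and p rule, with 7.31, 4.18 and 5.21 against 3.67, 2.86 and 4.17 FPKM (log2 fold change -0.51, SE 0.21, limma adjusted p = 0.713). Hey1, a Notch target, and Ephb4, a receptor of veins, had the highest levels, at 46.0 to 67.2 against 46.7 to 111 FPKM and 28.3 to 37.3 against 27.4 to 49.4 FPKM. Both lay above Plvap, the highest member with a mean of 14.5 FPKM, and no value here assigns them to the vessels. Of 11 hypoxia targets, 6 were below 0 and none met the rule. Kdm3a, a histone demethylase named after its values were seen, was the 1 with an unadjusted p under 0.05 (10.9, 9.46 and 10.2 against 13.5, 12.9 and 12.6 FPKM, unadjusted p = 0.0129, limma adjusted p = 0.634), and its genotypes did not overlap. The sum of the 11 was 176, 142 and 180 against 160, 170 and 164 FPKM, with Egln3 as its largest part. Without Egln3 it was 77.4, 109 and 122 against 119, 122 and 89.5 FPKM, lowest in the same pair as the vessel genes. Egln3, an oxygen sensor, had 98.4, 33.2 and 58.2 against 41.4, 47.4 and 74.1 FPKM and was highest in the 2 tumors with the lowest vessel RNA, whereas Slc2a1, a glucose carrier, had 15.4, 24.3 and 31.1 against 28.5, 27.2 and 14.2 FPKM and was lowest in them.

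The matrix under the vessels was examined as a list of its own. Of 9 basement membrane genes, 8 had a log2 fold change below 0, with a median of -0.45. Unadjusted limma p-values were under 0.05 for 5 of them, Col4a1, Col4a2, Nid1, Hspg2 and Sparc, where 6.94% of all genes had such a value, and none passed adjustment, the smallest adjusted p being 0.634. Col4a1 and Col4a2, the chains of the common collagen IV, met the fold and p rule as lower, as 1.87% of all genes did. Col4a1 had 39.3, 27.5 and 25.8 FPKM against 20.1, 21.4 and 14.7 FPKM (log2 fold change -0.68, SE 0.20), and Col4a2 28.2, 17.1 and 16.4 against 13.3, 15.1 and 9.25 FPKM (log2 fold change -0.65, SE 0.25). In both genes the genotypes did not overlap, and the highest value was in Trim11+/+ tumor 1, a tumor low in vessel RNA. Sparc, a collagen-binding protein, had 151, 189 and 186 against 140, 110 and 102 FPKM, and its relative Sparcl1 147, 251 and 175 against 266, 122 and 131 FPKM. Fibroblasts, mural cells and basal epithelium also make this matrix, and no value here assigns it to the vessels.

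Markers of other cells differed among the same tumors. For mural cells, which wrap vessels, 11 of 12 genes tested were below 0 (median -0.32), and their sum was 305, 140 and 121 against 109, 123 and 114 FPKM. Acta2 and Tagln, which myoepithelium also expresses, carried the high value of Trim11+/+ tumor 1, at 138 and 63.2 FPKM. Rgs5 had 12.2, 16.6 and 14.3 against 12.9, 14.9 and 8.15 FPKM, and Pdgfrb 4.23, 5.06 and 4.84 against 4.93, 4.34 and 2.68 FPKM. These genes, with Kcnj8 and Abcc9, were lowest in the same pair as the vessel genes, as 11.5% of all genes were. The other mural cell genes, Cspg4, Notch3, Higd1b, Des, Acta2, Myh11, Cnn1, Tagln and Mcam, were not. The basal epithelium markers Krt5, Krt14 and Trp63 summed to 168, 87.2 and 159 against 70.7, 32.7 and 56.0 FPKM. All 3 met the fold and p rule as lower in Trim11+/- tumors, as 1.87% of all genes did. None passed adjustment, with limma adjusted p-values of 0.610, 0.669 and 0.634. Luminal tumor epithelium, led by Epcam and Krt18, summed to 1361 to 1688 against 1427 to 1786 FPKM and did not mark the low pair.

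The summed level of 6 adipocyte markers, led by Cfd and Adipoq, did. It was 49.2, 348 and 76.6 FPKM in Trim11+/+ tumors and 303, 162 and 22.4 FPKM in Trim11+/- tumors, so the 2 tumors lowest in vessel RNA were also lowest in fat cell RNA, and the tumor highest in Apln was highest in it. The order did not hold throughout, since Trim11+/+ tumor 3 had the highest vessel sum, 118 FPKM, and was next lowest in fat cell RNA, at 0.478 of the mean. The part of remaining fat pad in the vessel values was not tested. Fibroblast markers, led by Col3a1 and Col1a1, summed to 153, 330 and 261 against 247, 126 and 157 FPKM, with all 7 below 0 and none with an unadjusted limma p under 0.05. Skeletal muscle markers, led by Acta1 and Mylpf, summed to 22.4, 108 and 231 against 278, 1.78 and 2.26 FPKM, so they were low in Trim11+/- tumor 2 as well.

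Blood cells were mixed. Macrophage markers, led by C1qa and Cd68, summed to 221, 158 and 184 against 160, 166 and 155 FPKM, and of 7 none met the fold and p rule. Platelet markers summed to 4.74, 9.33 and 5.45 against 7.55, 8.74 and 3.43 FPKM, lowest in the same pair as the vessel genes only with Pf4 counted (1.95, 1.97 and 1.17 against 1.82, 2.74 and 3.04 FPKM without it), and of 5 genes only Itga2b and Pf4 passed the filter on low values. Of 5 red cell genes, Hba-a1, Hbb-bs and Hbb-bt met the rule as lower and Hba-a2 as higher in Trim11+/- tumors. Of all genes, 1.87% met it as lower and 1.74% as higher. None of these red cell genes passed adjustment, with limma adjusted p-values of 0.593, 0.167, 0.629 and 0.707 in that order. The sum of the 5 was 38.0, 44.6 and 47.8 against 18.2, 16.3 and 24.2 FPKM. The globin genes are near copies of each other, so their reads can be split between them, and the sum is the firmer value. Of 6 markers of T and B cells only Cd2 was tested, and the sum was 0.684 to 2.22 FPKM over the tumors.

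**Figure D5:**
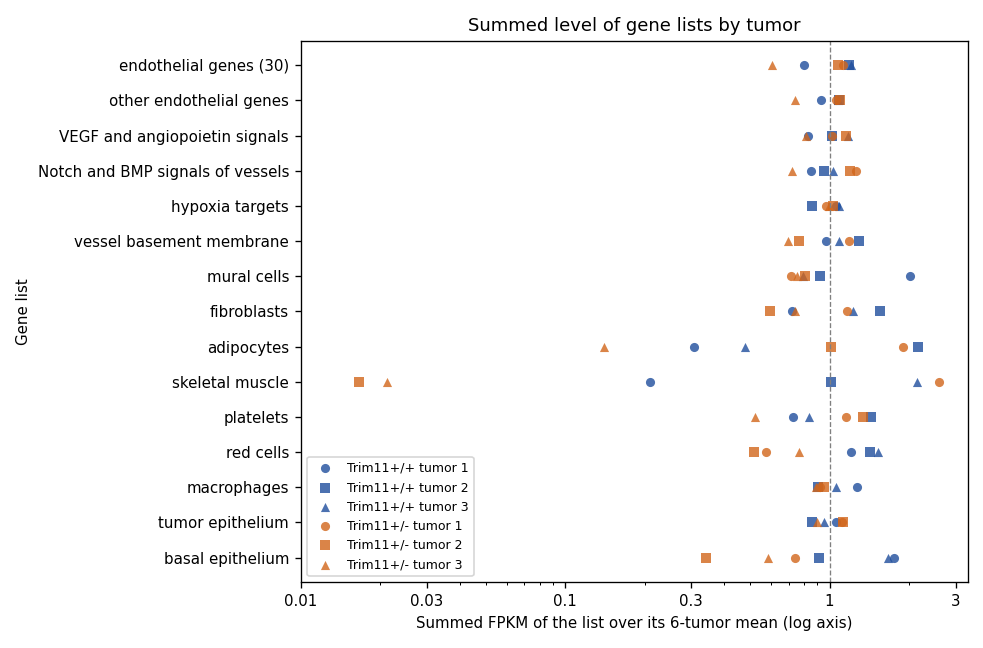
Summed FPKM of each gene list in each tumor, divided by the mean of that sum over the 6 tumors, on a log axis with a dashed line at 1. In the top row Trim11+/- tumor 3 is at 0.608 and Trim11+/+ tumor 1 at 0.804 of the mean, and in the adipocyte row they are at 0.140 and 0.307.

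To see which of these genes cancer cells can express without vessels around them, the human genes of the same names were read in the 7 MDA-MB-231 libraries, a Control line and lines with knockdown of TRIM11, KDM5C or both. All 30 had a row in that table, which was normalized on its own and gives no read numbers. In every line 19 were under 0.5 FPKM, and 5 of these, EMCN, CLEC14A, ERG, SOX17 and LYVE1, were listed at 0 in all lines. CDH5, with at most 0.202 FPKM, and PLVAP, with at most 0.183 FPKM, were among the 19. By contrast, 5 genes were at or above 0.5 FPKM in every line. EGFL7 had 38.6 to 91.6 FPKM (median 54.2), ESAM 9.39 to 44.2 FPKM (median 28.1), and ROBO4 6.95 to 14.9 FPKM (median 8.75). ICAM2 had 2.38 to 11.6 FPKM and PTPRB 0.691 to 3.35 FPKM. The other 6, PECAM1, CD34, KDR, ENG, APLN and NOS3, were under 0.5 FPKM in some lines and above it in others, with APLN between 0.475 and 4.76 FPKM. Whether the mouse tumor cells express any of them was not tested.

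Promoters of human genes of the set, given as windows of 300 bases that lie mostly before the start in RefSeq (GRCh38.p14), were searched on both strands for short motifs, since mouse promoters were not used here. Of 30 genes 16 had an entry. The ETS core GGAA was in all 16, against 95.5% of all promoters in the table, and the longer form ACAGGAAG, which contains it, in 0 of 16, against 2.92%. The SOX core ACAAT was in 4 of 16, EMCN, NOS3, TEK and APLN, or 25% against 28.0% of all. The E-box CANNTG was in 13 of 16, or 81.2% against 68.9%, and TATAAA in 2, ESM1 and FLT1, or 12.5% against 12.0%. These are letter matches in a short window and do not locate bound factors.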

How the data were processed

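RNA-Seq of mouse tumors was made by the authors from poly(A) RNA, with 1 library per tumor. According to the methods, reads were mapped with HISAT2 to mm10 and FPKM values were computed with Cufflinks. Submitters' processing notes also name Bowtie 0.12.2, without a role, and the build mm8 beside mm10. The authors deposited FPKM values per gene symbol in 1 table per species. Rows sharing a symbol were reduced to that with the highest mean (55335 rows, 55228 symbols). With exon lengths of GENCODE M21, 98.8% of nonzero FPKM values came out as whole reads within 0.02, which gave the read numbers and library totals. FPKM is relative to the library, so a gene's value moves with the share of other cells' RNA, and a library without strand mixes overlapping antisense genes.

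Genes with a mean of at least 0.5 FPKM over the 6 tumors were tested by limma 3.58.1 in R 4.3.3 (lmFit, eBayes with a trend) on log2(FPKM + 1), with genotype alone in the model and Benjamini-Hochberg adjustment over 17328 genes. A fold change on this scale understates that of low genes. The fold and p rule asked for a ratio of means of at least 1.5 and an unadjusted p under 0.05. Exact permutation tests were two-sided. Poisson intervals are at 95% and cover counting error only. The test was checked on simulated data for this comparison over 17328 genes, where it recovered 200 of 200 genes changed by 1 log2 unit, at an SD of 0.15, and called 9 unchanged genes. Most members had a larger pooled SD within genotypes, such as 0.46 for Cdh5 and 1.19 for Apln, and smaller estimated changes. The check therefore shows that the code runs correctly and does not give the power for the members. Python 3.11.15 with numpy 2.4.6, pandas 2.3.3, scipy 1.17.1 and matplotlib 3.10.9 served the rest.

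The members and all lists were chosen with earlier results of these data known. Named are all 30 members, Trim11, and of other lists the genes meeting the fold and p rule or the 2 with the highest mean. Nid1, Hspg2, Kdm3a, Sele, Bmx, Mmrn1, Vegfd and the mural cell genes beyond Acta2 and Tagln were named after values were seen. The counts of lowest tumors and the sums without 1 gene were also made after values were seen. Alternatives were another pseudocount, filter, scaling or variance model, the replicate number as a block, voom, and each tumor left out.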

Additional observations from a re-analysis of the deposited data

How the results depend on the processing

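Over 8 other settings, which changed the pseudocount, the filter, the scaling, the variance model, the block or the input, no member passed an adjusted p of 0.05 in limma, the smallest being 0.778, and members' log2 fold changes lay between -0.58 and 0.22. The median of the members was -0.22 with a pseudocount of 0.1 and -0.24 with limma voom on the recovered reads, with 22 and 23 members below 0. Egfl7 changed sign with voom, to -0.01. With the replicate block the count of members below 0 was 22, the median -0.11 and the count past the adjusted threshold 0. Deviations of same-numbered tumors correlated at -0.33, 0.038 and -0.13, and the block changed no call. With so few tumors per genotype, these correlations cannot decide whether the replicate numbers pair the tumors. Trim11 had an adjusted p of 0.975 with the block and between 0.155 and 0.669 in limma under the other settings, at a log2 fold change of -0.68 to -0.61.

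Leaving out 1 tumor at a time gave members' log2 fold changes from -0.74 to 0.64, a smallest adjusted p of 0.639 in limma, counts below 0 from 15 to 26 and medians from -0.23 to -0.01. The count meeting the fold and p rule ranged from 0 to 1, the 1 being Aplnr without Trim11+/+ tumor 1, and was again 1, Aplnr, with both low tumors left out (log2 fold change -0.51, adjusted p = 0.434). For 15 members the sign depended on a single tumor, with log2 fold changes ranging from low to high as follows, Clec14a -0.03 to 0.12, Egfl7 -0.15 to 0.23, Apln -0.73 to 0.64, Angpt2 -0.17 to 0.04, Sox17 -0.04 to 0.18, Nos3 -0.06 to 0.23, Pecam1 -0.17 to 0.16, Cldn5 -0.51 to 0.53, Esam -0.31 to 0.02, Icam2 -0.25 to 0.09, Cd34 -0.22 to 0.24, Flt1 -0.18 to 0.08, Cdh5 -0.44 to 0.08, Tie1 -0.31 to 0.02 and Erg -0.22 to 0.01. The causes were not tested. The confidence intervals given above are not adjusted for the number of genes tested. With 3 tumors per genotype, even Trim11, at -0.65 with an interval of -0.85 to -0.45, had an adjusted p of 0.199 in limma. Differences of the members beyond the width of their intervals could thus also go uncalled.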
